A study of Mus musculus with 8 samples.

Results

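Expression of 10 genes that neighbour Mef2c on mouse chromosome 13 was followed in the whole cortex of 8 mice. The genes are Nr2f1 and Arrdc3 on the left of Mef2c and Tmem161b, Ccnh, Rasa1, Edil3, Xrcc4, Tmem167, Atp6ap1l and Atg10 on its right, listed by position, and all 10 were found among the 22000 rows of the count table. They were picked by name, as genes within about 10 Mb of Mef2c, with the genotype differences of Tmem167 and Xrcc4 already known, so every genotype difference of a member is given here as a description. Counts of calls for genotype among the members stand beside the share of all genes called, and nothing is read from them. All 10 passed the filter on low counts, as did 54 other genes within 10 Mb of Mef2c and 13879 genes in all.

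The study compared Mef2c heterozygous mice with Mef2c wild type mice, 4 of each, with 2 males and 2 females per genotype and 1 library of polyadenylated RNA per mouse. The animal numbers in the sample titles fall into 2 runs, and each run holds 1 male and 1 female of each genotype. Replicates 1 and 2 of each genotype belong to the first run and replicates 3 and 4 to the second. The labels do not say what the runs stand for, and the sources used here give no strain, age or kind of Mef2c allele. Total counts per library lay between 16092773 and 17841377, and RNA integrity numbers between 8.6 and 9. Levels are in CPM, counts scaled to library size with TMM factors, and a difference is the mean log2(CPM + 0.5) of the libraries labelled heterozygous minus that of the libraries labelled wild type.

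Mef2c itself, the gene named by the labels, was counted higher in the libraries labelled heterozygous. They held 1304 ± 73.2 CPM (SD, n = 4), more than the 995 ± 41.3 CPM (SD, n = 4) of libraries labelled wild type. In edgeR's test of genotype its adjusted p was 0.000154. The kind of allele is not given, so whether this goes against the labels cannot be told. Every direction below therefore refers to libraries as labelled. The difference of Mef2c was 0.38 in the first run and 0.40 in the second.

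Genes that lie close together on a chromosome are inherited together, so mice that carry an altered allele usually also share the stretch of chromosome around it. The neighbours of Mef2c have unrelated jobs, among them DNA repair, autophagy, Ras signalling, transcription and membrane traffic. Some neighbouring genes are also arranged head to head, with their starts close together on opposite strands and the DNA between them serving as promoter of both.

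Xrcc4 and Tmem167 lie head to head by their RefSeq starts, and whether they share a promoter was not tested. Their promoter windows are shown because these genes had the lowest genotype differences of the 10 in the same run. Xrcc4 (ENSMUSG00000021615.13) lies on the minus strand of chromosome 13 from 89774027 to 90089608 and Tmem167 (ENSMUSG00000012422.14) on the plus strand from 90089123 to 90143907, in GENCODE coordinates of build GRCm38, and the gene models overlap by 486 bases, of which 112 are exonic in both. In the RefSeq promoter table for GRCm38.p6 the starts of the pair lie 59 bases apart. By the GENCODE models Tmem167 instead starts inside Xrcc4, with no DNA between the starts. Each window below runs from 250 bases before to 50 bases after the start of its gene, 5′ to 3′ on the strand of that gene, chr13:90089417-90089716 for Tmem167 and chr13:90089559-90089858 for Xrcc4. Capitals mark the 158 bases that the windows share, as reverse complements of each other.
Tmem167: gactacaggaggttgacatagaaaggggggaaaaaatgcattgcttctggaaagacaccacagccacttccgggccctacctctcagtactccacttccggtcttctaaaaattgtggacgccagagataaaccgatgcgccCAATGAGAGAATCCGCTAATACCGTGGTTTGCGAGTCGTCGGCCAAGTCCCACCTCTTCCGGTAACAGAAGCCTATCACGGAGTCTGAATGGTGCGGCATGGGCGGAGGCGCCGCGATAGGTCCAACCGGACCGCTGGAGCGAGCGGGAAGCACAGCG
Xrcc4: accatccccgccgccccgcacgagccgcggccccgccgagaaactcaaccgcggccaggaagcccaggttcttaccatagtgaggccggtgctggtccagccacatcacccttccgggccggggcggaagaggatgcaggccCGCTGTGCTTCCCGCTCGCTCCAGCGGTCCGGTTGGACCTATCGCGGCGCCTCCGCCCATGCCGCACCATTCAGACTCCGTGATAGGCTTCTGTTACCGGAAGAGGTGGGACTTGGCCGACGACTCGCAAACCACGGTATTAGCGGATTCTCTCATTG

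Of the 10 neighbours, 6 had a window in that table, and Tmem167 and Xrcc4 were the 2 of these 6 with an opposite-strand start no more than 300 bases away. Among all tested genes with a window, 14.2% had such a start (1475 of 10382). The motif CCGGAAG, a core of ETS factor sites, was found on either strand 3 times in the Tmem167 window and 2 times in the Xrcc4 window, and 1 match, from 90089614 to 90089620, lies in the shared part. At least 1 match was present in 8.86% of all 32851 windows of that length, and at least 3 in 0.213%. The Rasa1 window also held 1 match, and the windows of Nr2f1, Arrdc3 and Atg10 held 0. G and C made up 56.3% of the Tmem167 window and 65.7% of the Xrcc4 window, above the median of 52.7% over all windows. The shares of all windows with a motif were not matched for this. The motif GGGCGG, a core of Sp factor sites, had 1 match in the Tmem167 window and 3 in the Xrcc4 window, with 1 of them, from 90089659 to 90089664, in the shared part, and 35.7% of all windows hold it. At least 1 window of each of Nr2f1, Arrdc3, Rasa1 and Atg10 held it too. CCAAT had 1 match in the Tmem167 window, from 90089558 to 90089562, across the boundary of the shared part, which begins at 90089559 (37.4% of all windows). TATAAA (13.6% of all windows), TGACGTCA (1.79%), the NRF1 site (4.60%) and the MEF2 site (3.19%) had no match in either window, with both strands searched.

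Tmem167 codes for a small membrane protein of the Golgi, known as kish, that serves the secretory pathway. It lies 6.42 Mb to the right of Mef2c. In the first run its levels were 51.5 and 56.7 CPM in the libraries labelled heterozygous and 50.7 and 56.6 CPM in those labelled wild type. In the second run they were 26.3 and 24.9 CPM in the libraries labelled heterozygous and 51.2 and 53.8 CPM in those labelled wild type. Thus 6 of the 8 libraries lay close together and heterozygous replicates 3 and 4 stood far below them, with no overlap.

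The mean of these 2 libraries was 25.6 ± 0.970 CPM (SD, n = 2), and that of the other 6 was 53.4 ± 2.71 CPM (SD, n = 6), so Tmem167 stood at 47.9% of its level elsewhere. The difference between the genotypes was 0.01 in the first run and -1.02 in the second. Counting error was small beside this: the counts of 423 and 445 reads have 95% exact Poisson intervals of 383.6 to 465.3 and 404.6 to 488.3, while the lowest count elsewhere was 870 reads (813.1 to 929.8). Leaving out any library moved the difference of the second run only between -1.06 and -0.98. The low pair holds 1 male and 1 female.

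**Figure D1:**
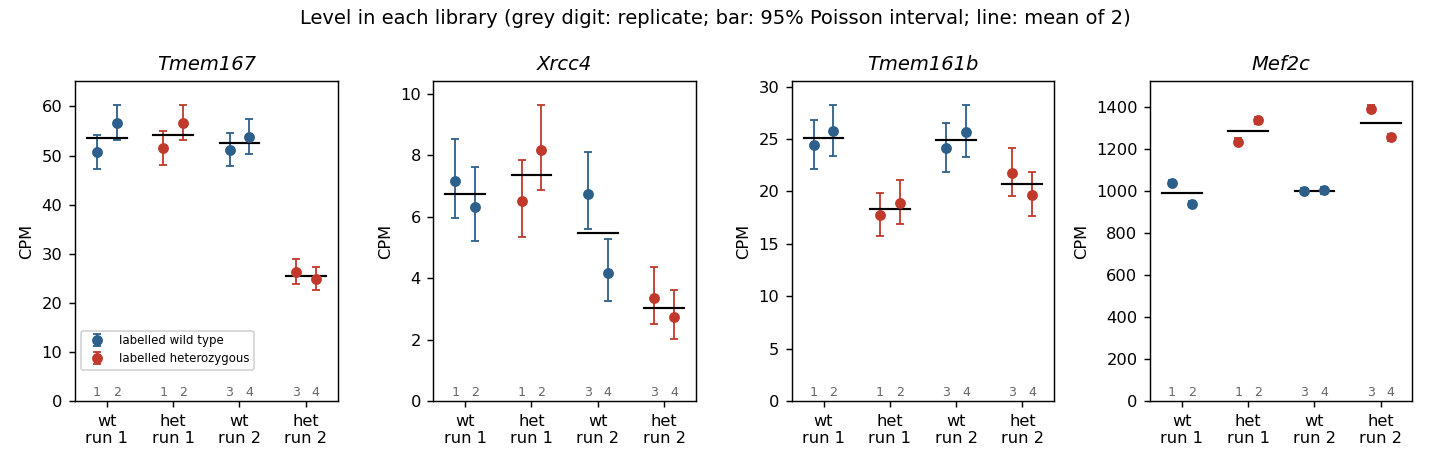
CPM (vertical axes, linear from 0) of Tmem167, Xrcc4, Tmem161b and Mef2c in each of the 8 libraries, by labelled genotype and run of animal numbers; points are libraries with 95% exact Poisson intervals of their counts, and lines are means of 2. Tmem167 is at 26.3 and 24.9 CPM in the second-run libraries labelled heterozygous and at 50.7 to 56.7 CPM in the other 6.

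Xrcc4 codes for the partner of DNA ligase IV in the repair of double-strand breaks by end joining. It is the least abundant of the 10 genes, with 49 to 141 reads per library. Its levels in the first run were 6.52 and 8.18 CPM in the libraries labelled heterozygous and 7.16 and 6.33 CPM in those labelled wild type. In the second run they were 3.36 and 2.74 CPM against 6.76 and 4.18 CPM. Heterozygous replicates 3 and 4 were again the lowest of all, but wild type replicate 4 lay nearer to them than to the remaining libraries.

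The difference of Xrcc4 was 0.11 in the first run and -0.72 in the second, or -1.04 without wild type replicate 4 and -0.40 without wild type replicate 3. The Poisson interval of wild type replicate 4, 3.25 to 5.29 CPM, overlapped that of heterozygous replicate 3, 2.52 to 4.38 CPM. The mean of heterozygous replicates 3 and 4 was 46.8% of the mean of the other 6 libraries, close to the share found for Tmem167.

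Markers of endothelial cells, the lining of blood vessels, were low in the same 3 libraries as Xrcc4. The summed level of 5 markers (Cldn5, Flt1, Pecam1, Slco1a4 and Ly6c1, with none at 0) was 148 and 140 CPM in heterozygous replicates 3 and 4 and 141 CPM in wild type replicate 4, against 186 to 216 CPM in the other 5 libraries. Wild type replicate 3, at 186 CPM, was also below all first-run libraries (192 to 216 CPM), so the sums separated the runs. For the mean difference between the runs edgeR called 2 of the 5 markers lower, beside 0.382% of all genes. All 5 markers had an unadjusted p under 0.05 in that test, beside 10.2% of all genes. Their part in the result for Xrcc4 was not tested. Tmem167 was not low in wild type replicate 4, where it had 53.8 CPM. In whole tissue, fewer cells of a type and less RNA per cell cannot be told apart.

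Across the 8 libraries the log2 levels of Tmem167 and Xrcc4 had a Pearson correlation of 0.86, given as a description over libraries that share genotype and run. Xrcc4 ranked 58th of 12861 genes by likeness to Tmem167, behind genes on other chromosomes. The 5 genes most like Tmem167 were Hdac8 (0.95), Fnbp1l (0.94), Crh (0.94), Anks3 (0.93) and Arhgef17 (0.93), and their differences in the second run lay between -0.48 for Crh and -0.16 for Anks3. The 5 most like Xrcc4 were Pabpc4, Srrt, Adgre5, Hipk1 and Agbl4, each at 0.96, with second-run differences between -0.22 and -0.12. None of these 10 genes lies on chromosome 13. None was as low in the second run as Tmem167 or Xrcc4, but that pair was chosen for its low values, so nothing is read from this.

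Among 12862 genes whose log2(CPM + 0.5) averaged 1 or more, Tmem167 had the 10th lowest difference in the second run and Xrcc4 the 31st lowest. Among the 448 such genes on chromosome 13 they were the lowest and the third lowest. A difference of -1 or below was found for 17 of all 13879 tested genes in that run (0.122%), and one of -0.5 or below for 1.43%. These ranks describe the pair, which was chosen for these values.

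**Figure D2:**
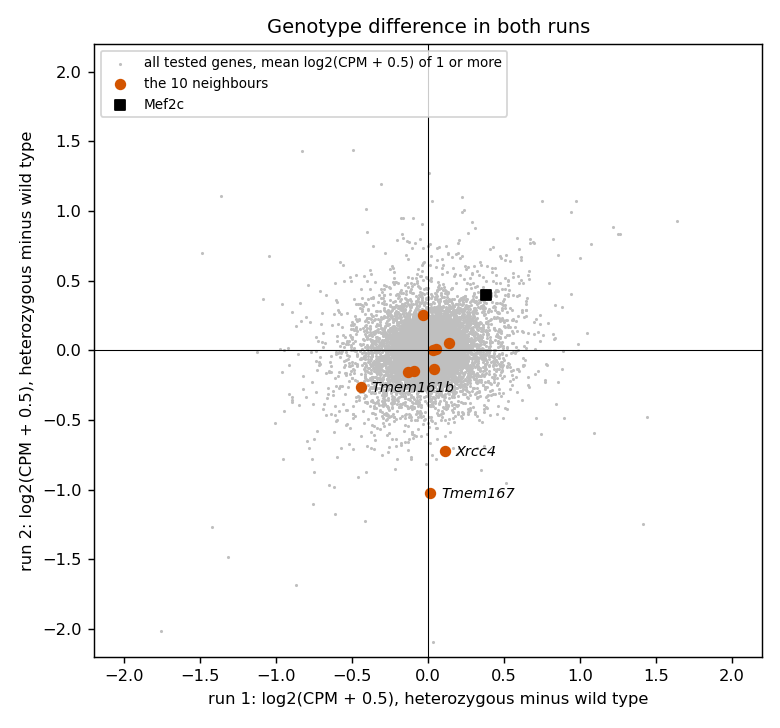
Genotype difference in log2(CPM + 0.5), heterozygous minus wild type as labelled, in the first run (horizontal axis) and the second run (vertical axis); grey points are tested genes with a mean of at least 1, orange points the 10 neighbours and the black square Mef2c. Tmem167 (0.01 and -1.02) and Xrcc4 (0.11 and -0.72) lie below most of the other genes, and Tmem161b (-0.44 and -0.26) lies among those low in both runs.

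Tmem161b (ENSMUSG00000035762.11, plus strand, 84222296 to 84296141), a gene of a membrane protein with many transmembrane segments, is the closest of the 10 to Mef2c, at 0.555 Mb. Its levels were 17.7, 18.9, 21.7 and 19.7 CPM in heterozygous replicates 1 to 4 and 24.4, 25.7, 24.1 and 25.7 CPM in wild type replicates 1 to 4. It was the 1 member whose 4 libraries labelled heterozygous all lay below all 4 labelled wild type, a pattern that 2.38% of all tested genes had in that direction and 4.55% in either. The difference was -0.44 in the first run and -0.26 in the second, and over all 8 libraries the fitted log2 fold change was -0.36 ± 0.09 (SE). With any library left out the fold change stayed between -0.42 and -0.30. Unlike Tmem167, it was lower in both runs.

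Rasa1 and Ccnh end on top of each other from opposite strands, with gene models that overlap by 8690 bases, of which 12 are exonic in both. Rasa1 (ENSMUSG00000021549.14, minus strand, 85214780 to 85289130) codes for a GTPase-activating protein that switches Ras off. It had 49.1, 47.6, 47.6 and 42.5 CPM in heterozygous replicates 1 to 4 and 50.045, 56.0, 48.3 and 52.1 CPM in wild type replicates 1 to 4. Its difference was -0.13 in the first run and -0.16 in the second, with no overlap within either run, while the ranges of all 4 libraries overlapped.

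Ccnh (ENSMUSG00000021548.10, plus strand, 85189408 to 85223469) codes for cyclin H of the CDK-activating kinase, which is also part of the transcription factor TFIIH. Its levels were 47.9 and 50.8 CPM against 52.0 and 49.2 CPM in the first run and 54.5 and 49.99 CPM against 43.2 and 44.2 CPM in the second, each time with the libraries labelled heterozygous first. The difference was -0.04 in the first run and 0.25 in the second, the only second-run difference of the 10 above 0.1. Without strand information the few reads that fall on the shared exonic bases could not be assigned to either gene.

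The 2 neighbours on the left differed little. Nr2f1 (ENSMUSG00000069171.14, minus strand, 78188973 to 78199757) codes for COUP-TF1, a nuclear receptor that patterns the areas of the cortex. It had 110, 130, 120 and 111 CPM in heterozygous replicates 1 to 4 and 128, 128, 134 and 123 CPM in wild type replicates 1 to 4, with differences of -0.10 and -0.15 in the first and second run. With heterozygous replicate 2 the genotypes overlapped. Its exons overlap those of an antisense gene, A830082K12Rik, by 123 bases, so reads on these bases may be lost or may not be its own. Arrdc3 (ENSMUSG00000074794.10, plus strand, 80883384 to 80896042), an alpha-arrestin gene whose product guides receptors through endosomes, had 39.8 to 53.4 CPM in the libraries labelled heterozygous and 44.1 to 52.0 CPM in the others. Its differences were 0.03 and -0.0003, and heterozygous replicates 1 and 2 held its highest and lowest level.

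Edil3 (ENSMUSG00000034488.14, plus strand, 88821472 to 89323223), the gene of a secreted protein that binds integrins, was the steadiest of the 10. All 8 libraries lay between 166 and 183 CPM, with differences of 0.05 and 0.01. It is the nearest member to the left of Xrcc4, and its second-run levels did not set heterozygous replicates 3 and 4 apart.

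On the other side of the pair lie Atp6ap1l (ENSMUSG00000078958.9, minus strand, 90883433 to 90905355), a gene that resembles an accessory subunit of the vacuolar proton pump, and Atg10 (ENSMUSG00000021619.6, minus strand, 90935356 to 91223968), whose product joins Atg12 to Atg5 in autophagy. Atp6ap1l had 10.3 to 12.7 CPM in the libraries labelled heterozygous and a range of 10.7 to 14.02 CPM in those labelled wild type, with differences of 0.04 and -0.13. Atg10 had 5.92, 6.85, 7.15 and 10.2 CPM in heterozygous replicates 1 to 4 and 6.81, 4.84, 7.45 and 9.09 CPM in wild type replicates 1 to 4, with differences of 0.14 and 0.05. For both genes the genotypes overlapped within either run.

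**Figure D3:**
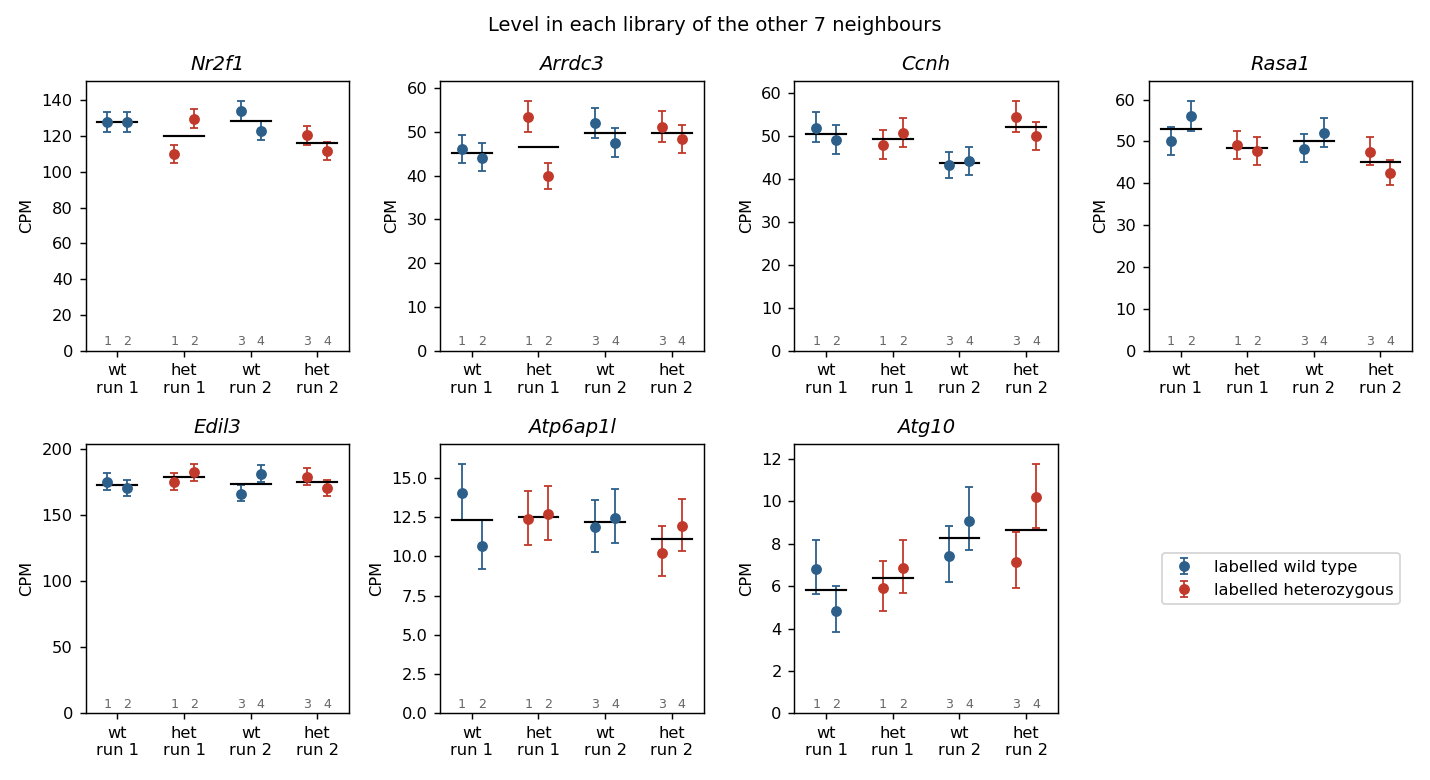
CPM (vertical axes, linear from 0) of Nr2f1, Arrdc3, Ccnh, Rasa1, Edil3, Atp6ap1l and Atg10 in each library, by labelled genotype and run; points are libraries with 95% exact Poisson intervals and lines are means of 2. Edil3 stays between 166 and 183 CPM, and the 4 second-run libraries of Atg10 lie above the 4 of the first run.

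In the fit of genotype over all 8 libraries, 0.267% of all genes were called (37 of 13879, edgeR, at a Benjamini-Hochberg adjusted p under 0.05) and 0 of the 10 neighbours, with 2 of them at an unadjusted p under 0.05, beside 7.24% of all genes. The DESeq2 Wald test and limma-voom also called 0. The number called among all genes varied with the library left out: it was 80 without heterozygous replicate 1, 24 without heterozygous replicate 2, 23 without wild type replicate 1 and 19 without wild type replicate 2. With so small a share of genes called, a count among 10 genes would stay near 0 in any case. Nothing is read from its staying at 0. The median fold change of the 10 was -0.09 and that of all tested genes -0.001, on the log2 scale. Within the first run 3 of the 10 had no overlap between the genotypes (Tmem161b and Rasa1 lower, Edil3 higher), beside 33.5% of all genes. Within the second run 6 had none (Tmem161b, Xrcc4, Tmem167, Rasa1 and Nr2f1 lower, Ccnh higher), beside 37.6% of all genes and 19.0% with the libraries labelled heterozygous lower. The median difference of the 10 was 0.02 in the first run and -0.14 in the second, and 5 of the 10 had the same sign in both, as did 53.5% of all genes. In a fit with a genotype by run term, 0.00721% of all genes were called (1 of 13879, edgeR), and that gene was Tmem167. It had been picked for this very difference, so the call only restates it, and 0 genes were called without heterozygous replicate 4. At an unadjusted p under 0.05 stood 3 of the 10, beside 4.09% of all genes, and nothing is read from this count.

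**Figure D4:**
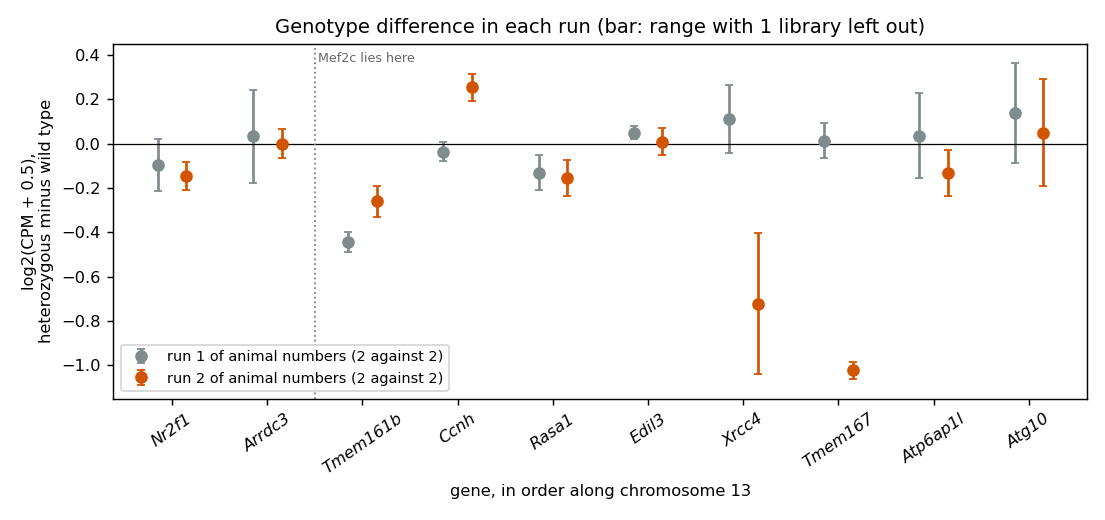
Genotype difference in log2(CPM + 0.5), heterozygous minus wild type as labelled, for the 10 neighbours in their order along chromosome 13 (horizontal axis), in the first run (grey) and the second run (orange); bars span the values with 1 library left out. Xrcc4 (-0.72) and Tmem167 (-1.02) stand apart in the second run, and Tmem161b is below 0 in both runs.

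Per length, in CPM per kb of annotated exons over all 8 libraries, Nr2f1 had the highest level of the 10 (24.2), followed by Ccnh (15.8), Edil3 (12.8), Atp6ap1l (9.40), Arrdc3 (7.62), Rasa1 (6.72), Tmem167 (4.30), Atg10 (4.24), Tmem161b (3.55) and Xrcc4 (1.34). Mef2c stood far above them at 73.1 CPM per kb. With the libraries labelled wild type alone, Tmem167 had 4.91, Atg10 4.10 and Tmem161b 3.99 CPM per kb, so the neighbours in this part of the order lie close together. These values use all annotated exons of a gene and understate the level of a gene whose long exons are rarely used.

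The spread between mice differed widely. In the libraries labelled wild type the coefficient of variation of CPM was 3.42% for Tmem161b, 3.53% for Nr2f1, 3.76% for Edil3 and 5.12% for Tmem167, and it was 21.7% for Xrcc4 and 24.95% for Atg10. In the libraries labelled heterozygous it was 41.7% for Tmem167 and 49.7% for Xrcc4, the highest of the 10, and 2.91% for Edil3, the lowest. Counting error alone would give about 10.2% for Xrcc4 and 8.96% for Atg10 at their mean counts, and 1.83% for Edil3.

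Male and female levels overlapped for all 10 genes, while 1.97% of all genes had no overlap. Of all genes 0.0288% were called for sex (4 of 13879, edgeR), and of the 10 neighbours 0, with Atg10 the 1 member at an unadjusted p under 0.05 (male minus female log2 fold change -0.38 ± 0.17 SE), beside 2.92% of all genes, and 0 called by DESeq2 or limma-voom. Its adjusted p was 1.00 in edgeR's test.

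The mean difference between the runs, over both genotypes, was tested next. Of all genes 0.382% were called (53 of 13879, edgeR) and of the 10 neighbours 0, and 0 by DESeq2 or limma-voom. At an unadjusted p under 0.05 in edgeR stood 2 of the 10, Atg10 and Xrcc4, beside 10.2% of all genes. Atg10 was higher in the second run by 0.47 ± 0.14 (SE) on the log2 scale, and edgeR gave it an adjusted p of 0.180. All 4 of its second-run libraries (7.15 to 10.2 CPM) lay above all 4 of the first (4.84 to 6.85 CPM), which 5.46% of all genes did in either direction. For Xrcc4 and Tmem167 the second run minus the first was -0.77 and -0.53. These values contain the low second-run pair the genes were chosen for, so nothing is read from a test of them. In the libraries labelled wild type alone the second run differed from the first by -0.03 for Tmem167 and by -0.31 for Xrcc4, and in those labelled heterozygous by -1.06 and -1.14.

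The pattern was then followed along the chromosome. Of the 64 tested genes within 10 Mb of Mef2c, 2 were called for genotype (3.13%, edgeR), beside 0.267% of all genes. They were Rasgrf2 and Cmya5, both lower in the libraries labelled heterozygous and neither among the 10. Rasgrf2, a Ras exchange factor gene 8.21 Mb to the right, had 157 to 185 CPM against 207 to 229 CPM (log2 fold change -0.33 ± 0.06 SE, adjusted p of 0.00636 in edgeR), with differences of -0.37 and -0.30 in the first and second run. Cmya5, a gene known from muscle and 9.37 Mb to the right, had 3.86 to 5.04 CPM against 7.22 to 8.26 CPM (log2 fold change -0.81 ± 0.16 SE, adjusted p of 0.0286 in edgeR), with differences of -0.79 and -0.70. Both were low in both runs, unlike Tmem167. Cmya5 was called with 2 of the 8 libraries left out in turn (heterozygous replicate 1 and wild type replicate 3) and lost its call without any of the other 6, with adjusted p in edgeR from 0.0538 to 0.144.

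Among the genes that are not members and whose log2 level averaged 1 or more, those whose differences moved most between the runs were Slc12a7 (0.40 and -0.47), a potassium chloride transporter gene, Mctp1 (0.36 and -0.18), a gene of a calcium-binding membrane protein, and Thbs4 (-0.54 and -0.03), a thrombospondin gene. Slc12a7 had 4.75 and 3.82 CPM in the second-run libraries labelled wild type against 2.21 and 2.02 CPM in those of the first run, while its 4 libraries labelled heterozygous lay between 2.74 and 3.17 CPM. Its shift between the runs thus lay in the libraries labelled wild type, unlike that of Tmem167. Mctp1 was both higher in the second-run libraries labelled wild type and lower in those labelled heterozygous. Hapln1 and Vcan, which code for parts of the extracellular matrix, lie between Edil3 and Xrcc4. Their differences were 0.28 and 0.30 in the first run and -0.11 and -0.19 in the second, so they too moved downward between the runs, by less than Tmem167 or Xrcc4. Rps23, a ribosomal protein gene that lies between Atp6ap1l and Atg10, had 0.04 and 0.08.

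On the right of Mef2c 14 of 19 genes that are not members had a fold change below 0, with a median of -0.17, and on the left 17 of 35 had one, with a median of 0.01, beside 50.5% of all tested genes and a median of -0.001. The genes closest to Mef2c did not share the lower values of the right side as a set. Of the 10 tested genes within 5 Mb on either side, members included, 3 had a fold change below 0, with a median of 0.07. The outermost members were Nr2f1, 5.30 Mb to the left, and Atg10, 7.27 Mb to the right (log2 fold changes of -0.12 and 0.10), and the next tested genes beyond them, Fam172a and Ssbp2, had -0.09 and -0.01. At the edge of the 10 Mb window Lpcat1 and Jmy, just inside, had -0.17 and 0.10, and Mrpl36 and Lhfpl2, just outside, had 0.03 and 0.14.

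**Figure D5:**
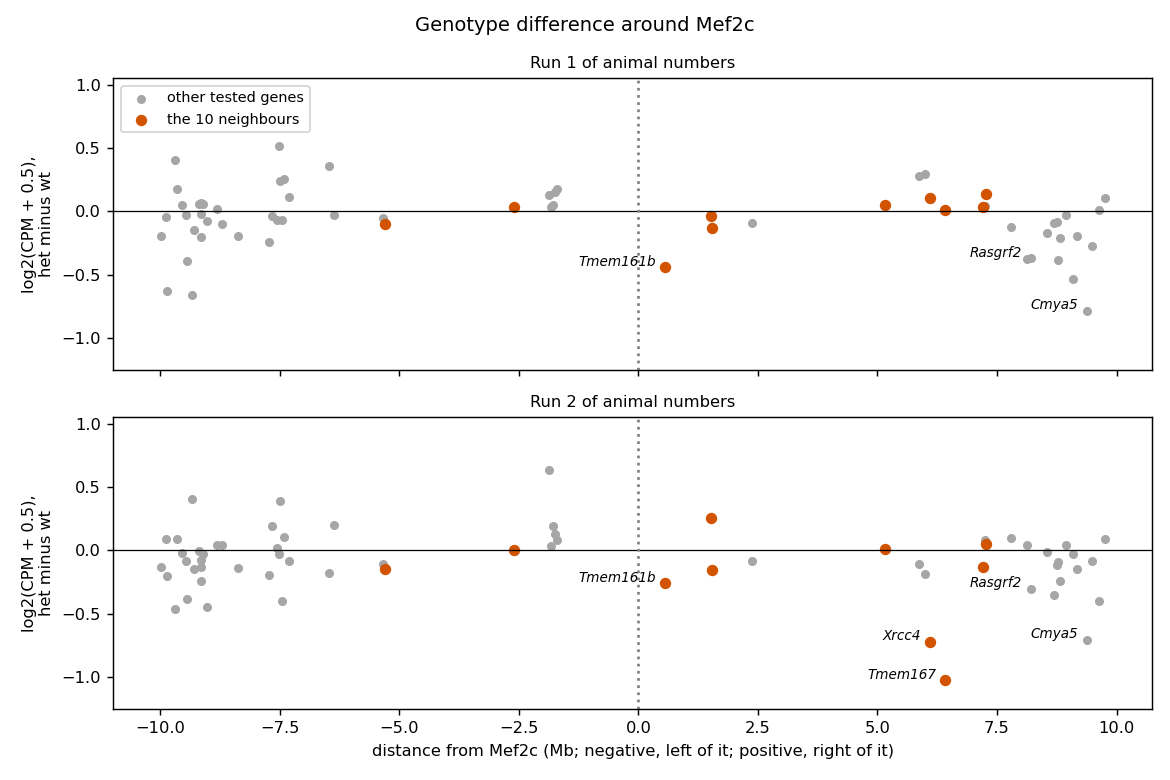
Genotype difference in log2(CPM + 0.5), heterozygous minus wild type as labelled (vertical axes), against distance from Mef2c in Mb (horizontal axis) for the 64 tested genes within 10 Mb, in the first run (top) and the second run (bottom); orange points are the 10 neighbours and grey points the other 54 genes. Tmem161b, Rasgrf2 and Cmya5 are below 0 in both panels, and Tmem167 and Xrcc4 are low in the bottom panel.

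Genes that work with the 10 neighbours but lie elsewhere were read for comparison. Of 68 tested genes in 9 lists, 0 were called for genotype by edgeR, by DESeq2 or by limma-voom, beside 0.267% called of all genes. At an unadjusted p under 0.05 stood 7 of the 68, beside 7.24% of all genes. The 9 tested end-joining genes beside Xrcc4 had a median log2 fold change of 0.04, and Polm, a DNA polymerase of that pathway, had the smallest p (0.43 ± 0.17 SE, adjusted p of 0.504 in edgeR). In the second run their differences lay between -0.24 and 0.31. Xrcc4 was lower, but it was chosen for its low second-run value, so nothing is read from that. Tmem167b, the paralogue of Tmem167, had differences of -0.08 and 0.21.

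The 14 genes of autophagy conjugation beside Atg10 had a median of -0.0006, with Gabarap, a gene of the Atg8 family, at 0.09, and the 15 proton pump genes had one of -0.003, with the pump subunit gene Atp6v1g2 at 0.06. The 9 genes of Ras GTPase-activating proteins beside Rasa1 had a median of -0.005, with Rasal3 at 0.75 ± 0.23 (SE, adjusted p of 0.262 in edgeR). The 9 partners of cyclin H had one of -0.04, with the TFIIH subunit gene Gtf2h4 at -0.22. The 4 other alpha-arrestins had a median of -0.03, with Arrdc1 at -0.15, and Nr2f2, the closest relative of Nr2f1, had 0.26 ± 0.26 (SE), with differences of opposite sign in the first run (0.62) and the second (-0.11). The 4 genes of integrins and the related ligand Mfge8 beside Edil3 had a median of -0.21, and all 4 had an unadjusted p under 0.05, beside 7.24% of all genes. The integrin gene Itgb5, with the smallest p, was the 1 above 0, at 0.22 ± 0.07 (SE, adjusted p of 0.251 in edgeR). The other 3 were below 0 in both runs, with differences of -0.48 and -0.09 for Mfge8, -0.17 and -0.12 for Itgav and -0.41 and -0.37 for Itgb3.

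The tissue label was checked with 9 cortical markers, Slc17a7 and Tbr1 among them. All 9 were expressed, with a summed level of 2777 to 3027 CPM per library. Striatum markers, which would come with tissue from below the cortex, summed to 343 and 355 CPM in heterozygous replicates 1 and 2 and to 256 to 304 CPM in the other 6 libraries. In the second run the sums were 293 and 256 CPM in heterozygous replicates 3 and 4 and 272 and 304 CPM in wild type replicates 3 and 4. In the first run the 6 tested striatum markers had a median difference of 0.508, with 0 of them below 0. In the second run the median was -0.145, with 5 of the 6 below 0 and the lowest below the difference of Tmem167. For genotype by run 5 of the 6 had an unadjusted p under 0.05 in edgeR, beside 4.09% of all genes. The part of striatum tissue in the differences of the 10 genes was not tested. Microglia markers (7 of 8 tested, 2 called higher by edgeR) summed to 347 to 391 CPM in the libraries labelled heterozygous and 312 to 336 CPM in those labelled wild type. Hippocampus markers (5 of 6 tested, 2 called higher) summed to 206 to 237 CPM against 190.1 to 199 CPM. They did not all move alike: 2 of the 5 had a difference below 0 in each run, the lowest -0.95 in the first and -0.44 in the second. In all 8 libraries 1 had no overlap with the libraries labelled heterozygous lower. Both sums thus separated the genotypes as Tmem161b did, in the opposite direction, and their part in the differences of the 10 genes was not tested. No tested marker of either list was at 0.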

How the data were processed

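Messenger RNA of whole cortex was counted in 8 libraries. The deposited table holds raw counts by gene symbol, made by the authors with STAR 2.5.2b and HTSeq on build mm10 per the submitters' processing notes. Annotation, strand setting and filters were not found in those notes. Reads on bases shared by genes on opposite strands, Xrcc4 and Tmem167 among them, may therefore be lost or credited to the wrong gene.

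Low genes were removed by filterByExpr of edgeR (minimum count 10; 13879 genes left, 99.95% of reads), and libraries were scaled by TMM. The main test was edgeR 4.0.16 (R 4.3.3) quasi-likelihood with sex and genotype, and the run of animal numbers or its product with genotype was added for those comparisons. Benjamini-Hochberg adjustment ran over all genes. Differences within a run use a pseudocount of 0.5 CPM. Alternatives were DESeq2 1.42.0, limma 3.58.1 (voom), other filters, scalings and pseudocounts, and each library left out. The code was tested on simulated data. Positions come from GENCODE M21, to which 19857 of 22000 rows matched. Promoters come from RefSeq.

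The members and lists were chosen with earlier results of these data known, and 1 cortical marker is not reported here. Besides the 10 members and Mef2c, genes were named by rule: called genes within 10 Mb, the 3 with a mean log2 level of at least 1 whose difference moved most between runs, the 5 most like Tmem167 and Xrcc4, and the called or smallest-p gene of each partner list. Hapln1, Vcan, Rps23, Homer1, Mfge8, Itgav, Itgb3 and genes at the edges were named outside it, after their values were seen. The libraries are separate mice by their titles, and no pair within a genotype agreed within sampling noise (lowest chi-square per degree of freedom 4.14). Intervals are 95% and cover counting error only.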

Additional observations from a re-analysis of the deposited data

Results flagged for a closer look

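The genotype difference of Tmem167 differed between the runs of animal numbers: the second-run difference minus the first-run difference was -1.04 on the log2 scale. The gene was chosen for this difference, so a test of it would only restate the choice. For the 10 neighbours and for Rasgrf2, Cmya5, Slc12a7, Mctp1 and Thbs4, no library stood apart from the other 3 of its genotype by Dixon's test, in 30 groups of 4 libraries, a test that by chance marks about 1 in 20 groups. The test looks for 1 library standing apart. It could not mark heterozygous replicates 3 and 4 of Tmem167, which were low together, so nothing is read from it for that gene.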

How the results depend on the processing

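The second-run difference of Tmem167 was between -1.03 and -0.98 and that of Xrcc4 between -0.79 and -0.55 under other scalings, filters and pseudocounts. With 1 library left out they ranged from -1.06 to -0.98 and from -1.04 to -0.40. Calls among the 10 neighbours stayed at 0 for genotype and for sex under every alternative run, and for the runs they ranged from 0 to 1 with 1 library left out, 1 being Xrcc4 without wild type replicate 3. That call contains the low second-run pair Xrcc4 was chosen for, so nothing is read from it. Genes called for genotype among all tested numbered 37, or 82 without a filter on low counts, 80 with the DESeq2 Wald test, 72 with the run as a further term and 19 to 80 with 1 library left out. The 2 called genes within 10 Mb of Mef2c, Rasgrf2 and Cmya5, lie 8.21 and 9.37 Mb from it. A window of 5 Mb leaves both out by position and held 0 called genes. The number called within 10 Mb ranged from 1 to 2 with 1 library left out. Without heterozygous replicate 2 the 2 were Rasgrf2 and Homer1. Genes called for genotype by run numbered 1 in the main fit, 14 without a filter on low counts, 4 with the DESeq2 Wald test and 0 to 7 with 1 library left out, 0 being without heterozygous replicate 4. The cause was not tested. Replicates were numbered in accession order and the labels name no shared litter, day or animal, so replicates of equal number were not treated as pairs. Runs and sexes do match 1 animal of each genotype, and with both as terms the calls among the 10 stayed at 0. Depth limits Xrcc4 most, at 49 to 141 reads per library.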
